A study of Mus musculus with 10 samples.

Results

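The RNA sensors examined here are the proteins by which a cell detects foreign or double-stranded RNA. They comprise the cytosolic RIG-I-like receptors Rigi, Ifih1 and Dhx58, the ubiquitin ligase Trim25, the adaptor Mavs, the endosomal receptor Tlr3, the kinase Eif2ak2 and the nucleic acid sensor Zbp1. The genes were chosen by symbol for their relevance to a circular RNA expressed from a viral vector, and all 8 were found among the 21956 genes of the deposited table. Hippocampal RNA was sequenced from hMapt mice aged 6 months. One group of 5 libraries came from mice injected with AAV-circTau6, an adeno-associated virus vector encoding a circular RNA made from the tau gene, 80 days after injection. The other group of 5 libraries came from mice labelled control, which the extraction protocol describes as control-injected. The labels give no time after injection for the control group. All 10 libraries share the hMapt genotype, which stands for the human tau gene, so neither group is a wild type. The labels give no virus serotype, promoter, injection site or control vector, and they do not say whether each library is a separate mouse. The p-values therefore measure the spread between these libraries, and the level of circTau6 itself was not analysed here.

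RNA sensing in vertebrates runs through a few separate routes. RIG-I and MDA5, the products of Rigi and Ifih1, bind double-stranded or 5′-triphosphate RNA in the cytosol and pass the signal to MAVS on mitochondria, which switches on interferon genes through the kinase TBK1. TLR3 reads double-stranded RNA inside endosomes, PKR, the product of Eif2ak2, stops translation when it binds double-stranded RNA, and ZBP1 binds Z-form nucleic acid and can start cell death. Most of these sensor genes are themselves induced by interferon, which acts through a promoter element called the interferon-stimulated response element (ISRE), whereas Mavs is generally regarded as a constitutive adaptor.

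The ISRE sequences of the sensor promoters are shown here because the sensors that carry them are among those whose levels varied together across libraries. RefSeq promoters (GRCm38.p6, 250 bases before to 50 after the start) were found for 6 of the 8 sensors, those of Rigi, Ifih1, Trim25, Mavs, Tlr3 and Eif2ak2, and not for Dhx58 and Zbp1. The ISRE core, taken as GAAA, any 2 bases and GAAA again and searched on both strands, was found in 3 of the 6, beside 3.99% of all 27025 genes with a promoter entry. Each line gives 30 bases in the orientation of the transcript, 5′ to 3′, with the core in capitals.
Eif2ak2, chr17:78882535-78882564, minus strand: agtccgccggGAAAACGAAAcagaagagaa
Ifih1, chr2:62646206-62646235, minus strand: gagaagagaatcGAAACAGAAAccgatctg
Rigi, chr4:40239804-40239833, minus strand: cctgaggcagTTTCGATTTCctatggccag
The core lies just after the annotated start in all 3 genes, beginning 18 bases past it in Eif2ak2, 32 bases past it in Ifih1 and 2 bases past it in Rigi, where it reads on the opposite strand. A match to these letters is a description of the sequence and not a measured binding site.

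The libraries held 14762952 to 17647138 counts each, and 14396 genes passed the filter on low counts, all 8 sensors included. Markers of hippocampal neurons were present in 10 of 10 libraries, with a summed level of 606 to 681 CPM (counts scaled to library size) in circTau6 libraries and 617 to 695 CPM in control libraries. Choroid plexus markers were low in circTau6 replicate 5 and control replicate 2, whose summed levels were 64.3 and 73.2 CPM, against group maxima of 5512 CPM in circTau6 and 4549 CPM in control libraries. circTau6 replicate 3 was the highest library for 18.3% and the lowest for 20.2% of genes, more than any other library. Its deviation from the mean of all libraries correlated with the GC content of genes at r = 0.284 across 14371 genes, and the other libraries lay between -0.0679 and -0.00902.

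Of the sensor transcripts, Tlr3 was the most abundant in hippocampus and Zbp1 and Dhx58 the least, on the TPM scale, which corrects for transcript length. Tlr3 averaged 15.9 ± 1.17 TPM in circTau6 libraries and 15.6 ± 3.06 TPM in control libraries (SD, n = 5 each), above every other sensor in 10 of 10 libraries. Mavs followed at 9.23 ± 1.82 TPM in circTau6 and 7.66 ± 0.790 TPM in control libraries, with Eif2ak2 at 8.49 ± 2.03 and 7.99 ± 2.88 TPM. The order of this pair is not settled, since Eif2ak2 was the higher in 5 of 10 libraries. Rigi averaged 6.59 ± 1.27 TPM after circTau6 and 6.26 ± 2.42 TPM in control, and Ifih1 5.40 ± 0.685 and 5.16 ± 1.46 TPM. Rigi exceeded Ifih1 in 9 of 10 libraries, and both exceeded Trim25, at 4.56 ± 0.674 TPM after circTau6 and 4.53 ± 1.71 TPM in control libraries. Dhx58 averaged 1.68 ± 0.728 TPM in circTau6 and 1.73 ± 0.874 TPM in control libraries, and Zbp1 2.04 ± 1.23 and 1.35 ± 1.02 TPM. Dhx58 was the higher of these in 7 of 10 libraries, 2 of 5 after circTau6 and 5 of 5 in control. Zbp1 is the least certain of these levels, because its TPM for each CPM varied 2.54-fold between libraries, against at most 1.32-fold for any other sensor.

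**Figure D1:**
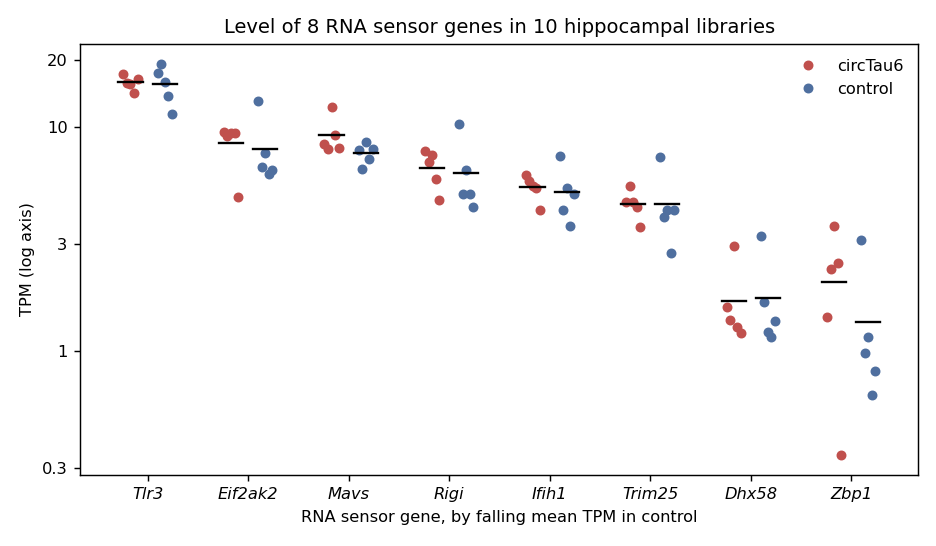
Level of the 8 RNA sensors in TPM on a log axis, one point per library, with circTau6 left of control and a bar at each group mean. Tlr3 stands above the other sensors in 10 of 10 libraries, and Zbp1 spans 0.343 to 3.62 TPM.

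No sensor passed the test between circTau6 and control libraries. In edgeR's quasi-likelihood test with Benjamini-Hochberg adjustment over all genes, 0 of 8 sensors passed an adjusted p of 0.05, with adjusted p between 0.981 and 0.995. The log2 fold changes of circTau6 over control ran from -0.05 for Dhx58 to 0.62 for Zbp1, with a median of 0.08 beside a median of -0.00 over all genes tested. They were above 0 for 7 of 8 sensors, beside 49.9% of all genes. Over all 14396 genes, 0% were called higher and 0% lower at the adjusted threshold. At an unadjusted p under 0.05, 2.58% of genes were higher and 1.85% lower after circTau6, and 0 of 8 sensors were in either set. Every circTau6 library lay above every control library for 0.472% of genes and below for 0.368%, and for 0 of 8 sensors in either direction. edgeR called 0 genes and counted 637 at an unadjusted p under 0.05, DESeq2 called 14, all higher, and counted 746, and limma voom called 2 and counted 721. No sensor was called by any of the 3 tools. In the authors' deposited table the sensors had false discovery rates of 0.987 to 0.990, a log2 fold change of 0.60 for Zbp1 and an unadjusted p of 0.0501 for Mavs.

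The RIG-I-like receptors are the main cytosolic sensors. Rigi (ENSMUSG00000040296, named Ddx58 in GENCODE M21, chromosome 4, 40203773 to 40239828, minus strand, GRCm38) binds short double-stranded RNA with a 5′-triphosphate. Its levels in circTau6 replicates 1 to 5 were 12.2, 11.0, 11.4, 9.01 and 7.35 CPM, against 16.2, 7.89, 10.2, 7.16 and 6.88 CPM in control replicates 1 to 5. The highest and the lowest library were both controls, so the control group spanned the whole circTau6 range. On the log2 scale circTau6 over control was 0.08 ± 0.24 (SE, 95% interval -0.44 to 0.60, adjusted p = 0.992).

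Ifih1 (ENSMUSG00000026896, chromosome 2, 62595798 to 62646255, minus strand) encodes MDA5, which binds long double-stranded RNA. circTau6 libraries had 12.1, 11.8, 11.9, 10.5 and 8.03 CPM of Ifih1, against 14.3, 7.42, 10.7, 6.76 and 9.08 CPM in control libraries. Apart from circTau6 replicate 5, the circTau6 libraries kept close together, whereas the controls were spread out on both sides of them. The log2 difference between the groups was 0.17 ± 0.19 (SE, 95% interval -0.24 to 0.58, adjusted p = 0.981).

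Dhx58 (ENSMUSG00000017830, chromosome 11, 100694884 to 100704271, minus strand) encodes LGP2, which lacks the signalling domain of the other RIG-I-like receptors and tunes their response. Its levels were 1.53, 1.35, 2.87, 1.24 and 1.16 CPM in circTau6 libraries and 3.17, 1.60, 1.21, 1.14 and 1.34 CPM in control libraries. In each group a single library stood far above the rest, circTau6 replicate 3 and control replicate 1. The deviations of circTau6 replicate 3 followed GC content, and Dhx58 has 53.9% GC, above 71.8% of tested genes. The part of GC content in the Dhx58 level was not tested. The log2 fold change of -0.05 ± 0.34 (SE, 95% interval -0.77 to 0.68) was the only one below 0, and its direction depended on single libraries, reaching 0.30 without control replicate 1 and -0.36 without circTau6 replicate 3.

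Trim25 (ENSMUSG00000000275, chromosome 11, 88999376 to 89020293, plus strand) encodes a ubiquitin ligase linked to RIG-I activation. circTau6 libraries had 10.5, 12.4, 10.4, 9.77 and 8.03 CPM, against 14.7, 8.96, 9.82, 5.76 and 9.61 CPM in control libraries. Control replicates 1 and 4 were the extremes, and the circTau6 libraries lay between them. Its log2 fold change was 0.07 ± 0.20 (SE, 95% interval -0.36 to 0.50, adjusted p = 0.992).

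Mavs (ENSMUSG00000037523, chromosome 2, 131234063 to 131248025, plus strand) encodes the mitochondrial adaptor on which RIG-I and MDA5 converge. It had the lowest unadjusted p of the sensors, with levels of 9.86, 9.31, 14.4, 10.7 and 9.45 CPM in circTau6 libraries and 9.25, 7.60, 10.2, 8.57 and 9.41 CPM in control libraries. The groups overlapped, and circTau6 replicate 3 lay well above every other library. circTau6 over control gave a log2 fold change of 0.25 ± 0.13 (SE, 95% interval -0.02 to 0.53, p = 0.0683, adjusted p = 0.981), and by exact permutation of the library labels (two-sided, 252 arrangements) p = 0.0952. Without circTau6 replicate 3 it was 0.12 ± 0.11, and it was 0.30 ± 0.14 without circTau6 replicate 2, 0.29 ± 0.14 without circTau6 replicate 5 and 0.31 ± 0.14 without control replicate 3. In the last 3 of these fits the unadjusted p of Mavs was under 0.05, with adjusted p of 0.741 to 0.990. circTau6 replicate 3 is the library whose deviations followed GC content, and Mavs has 53.9% GC in its exons, above 72.0% of tested genes. The part of GC content in the Mavs level was not tested.

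Tlr3 (ENSMUSG00000031639, chromosome 8, 45395665 to 45411080, minus strand) encodes the endosomal receptor for double-stranded RNA. It had 24.1, 22.0, 19.9, 19.7 and 20.9 CPM in circTau6 libraries and 25.8, 22.3, 18.2, 18.9 and 17.2 CPM in control libraries. Its coefficient of variation of 8.40% was the smallest of the sensors in circTau6 libraries, and its 17.3% in control libraries was second to the 10.7% of Mavs. It also had the narrowest interval, and its log2 fold change of 0.06 ± 0.11 was bounded by -0.17 and 0.28 (SE and 95% interval, adjusted p = 0.988).

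Eif2ak2 (ENSMUSG00000024079, chromosome 17, 78852564 to 78882573, minus strand) encodes PKR, which phosphorylates the translation factor eIF2α. Its levels were 16.6, 16.0, 16.4, 16.1 and 8.37 CPM in circTau6 libraries and 22.7, 11.5, 13.5, 10.9 and 11.2 CPM in control libraries. The circTau6 group held 4 nearly equal libraries and 1 low one, replicate 5, while the control group held 4 lower libraries and 1 high one, replicate 1. Eif2ak2 had a log2 fold change of 0.08 ± 0.25 (SE, 95% interval -0.48 to 0.63, adjusted p = 0.993), which was 0.32 ± 0.18 without control replicate 1 and 0.22 ± 0.20 without circTau6 replicate 5.

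Zbp1 (ENSMUSG00000027514, chromosome 2, 173206612 to 173218923, minus strand) encodes the Z-nucleic acid sensor that links to RIPK3 and cell death. It was counted 20, 21, 30, 19 and 4 times in circTau6 libraries and 27, 9, 12, 3 and 6 times in control libraries. Scaled to library size these are 1.13, 1.23, 1.72, 1.12 and 0.272 CPM after circTau6 and 1.75, 0.534, 0.689, 0.201 and 0.401 CPM in control. The groups overlapped, with control replicate 1 the highest of the 10 libraries, control replicate 4 the lowest and circTau6 replicate 5 the next lowest. Zbp1 had a log2 fold change of 0.62 ± 0.51 (SE, 95% interval -0.46 to 1.71, adjusted p = 0.981), the largest and the least precise of the 8. At counts this low the depth is limiting, and the 95% Poisson interval of the lowest circTau6 count is 1.09 to 10.2.

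Reads of 3 sensors could be shared with a gene on the opposite strand. In GENCODE M21, exons of Dhx58 overlap those of Dhx58os over 141 bases, exons of Tlr3 those of Gm45542 over 381 bases, and exons of Eif2ak2 those of Gm26637 over 174 bases and of n-R5s29 over 47 bases. The libraries were strand-specific, but no source used here says whether the counting took account of strand.

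**Figure D2:**
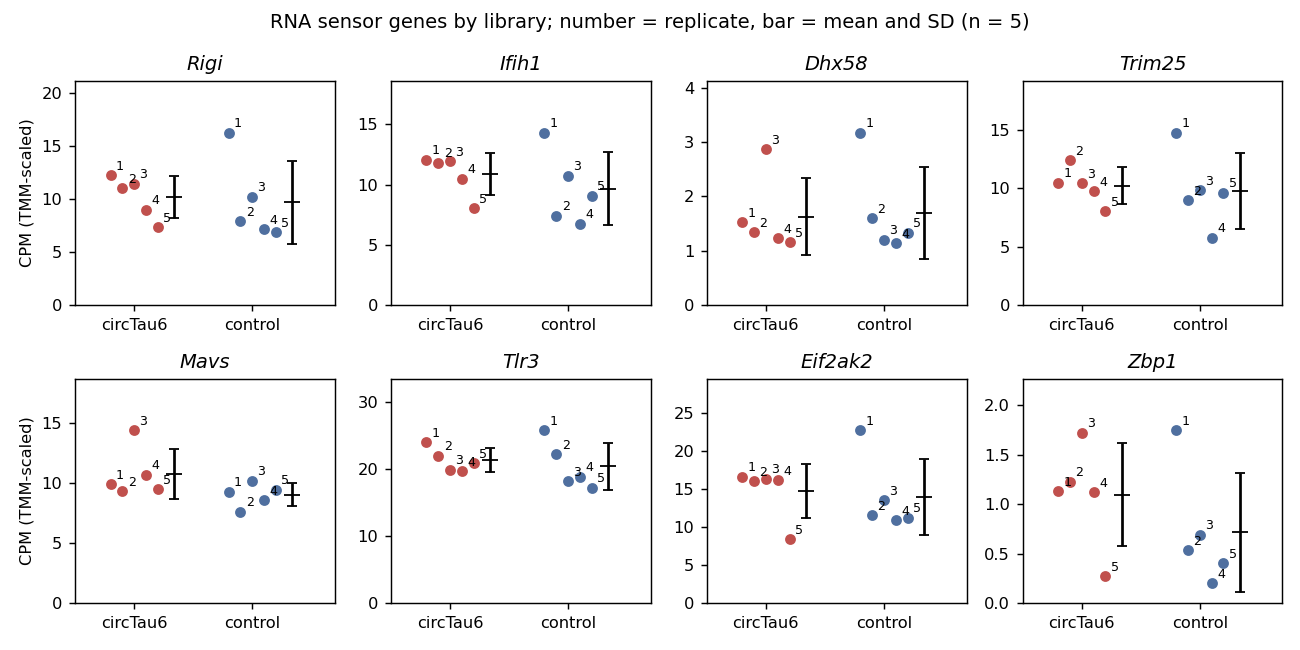
Level of each RNA sensor in CPM in each of the 10 libraries, one panel per gene, with the 5 circTau6 libraries left of the 5 control libraries, replicate numbers marked and a bar for each group's mean and SD. Control replicate 1 is the highest point of 7 of the 8 panels, and circTau6 replicate 3 of the Mavs panel.

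**Figure D3:**
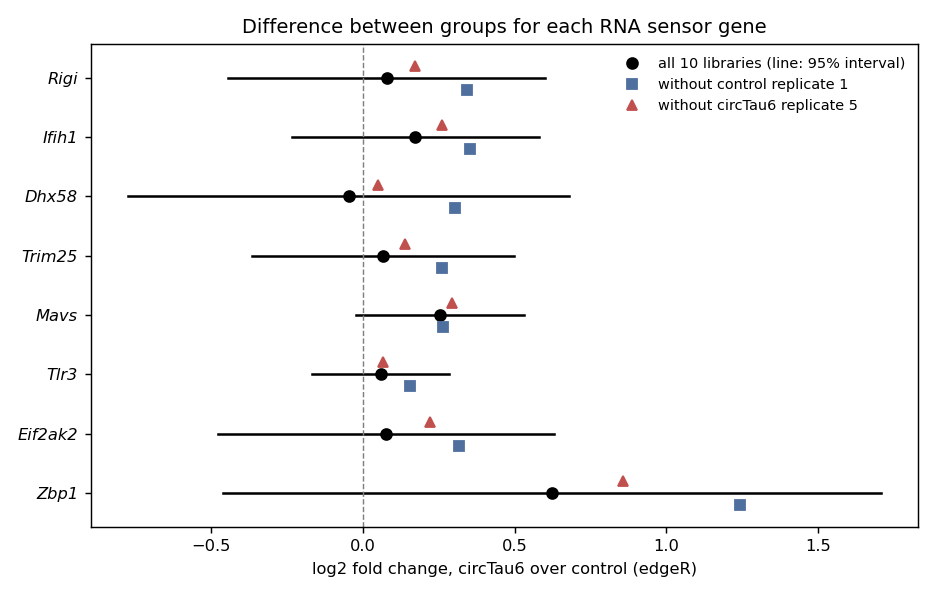
Log2 fold change of circTau6 over control for each sensor with its 95% interval from edgeR over all 10 libraries, beside the values without control replicate 1 (squares) and without circTau6 replicate 5 (triangles). Each interval over all 10 libraries includes 0, and the values without control replicate 1 lie above 0 for 8 of 8 sensors. The squares leave out a library picked for its high sensor values.

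One control library stood at the top for nearly every sensor. Control replicate 1 was the highest of the 10 libraries for 7 of 8 sensors, all except Mavs, and it was the highest for 7.40% of all tested genes. Control replicate 4 was the lowest library for 4 of 8 sensors, against 9.42% of all genes. The coefficient of variation was larger in control than in circTau6 libraries for 7 of 8 sensors, against 40.2% of all genes, and without control replicate 1 this held for 3 of 8 sensors and 40.7% of all genes. The comparison with control replicate 1 was chosen after its values were seen, and nothing in the labels sets that library apart.

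Leaving out control replicate 1 put the log2 fold change above 0 for 8 of 8 sensors. That library was picked for its high sensor values, so a rise without it follows from the choice and is no separate result. Zbp1 was then at 1.24 ± 0.48, Ifih1 at 0.35 ± 0.15, Rigi at 0.34 ± 0.16, and Tlr3, the smallest, at 0.15 ± 0.09 (SE, edgeR with that library left out). Of these, Zbp1 and Ifih1 had an unadjusted p under 0.05, and the share of all genes at that p in this fit was not counted. None passed the adjustment over all genes, the adjusted p being 0.962 for each sensor. Without circTau6 replicate 5 and control replicate 2, the pair low in choroid plexus markers, 8 of 8 values were also above 0, with a lowest adjusted p of 0.905. Without control replicate 4, the library lowest for 4 of 8 sensors, 5 of 8 remained above 0. The sign of the small differences of Rigi, Trim25 and Dhx58 thus depended on which library was in the fit. Zbp1, Ifih1, Mavs, Eif2ak2 and Tlr3 were above 0 with each of the 10 libraries left out in turn. Eif2ak2 fell to 0.002 ± 0.26 without control replicate 4 and Tlr3 to 0.003 ± 0.11 without control replicate 5, so their sign is not settled either.

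Rigi, Ifih1, Trim25, Eif2ak2 and Zbp1 varied together across the 10 libraries, each pair of them passing the test below. Of the 28 pairs of sensors, 12 were correlated in log2 CPM at an adjusted p under 0.05 (permutation test, 100000 resamples, Benjamini-Hochberg over 28 pairs). All 12 lay among the 15 pairs of Rigi, Ifih1, Dhx58, Trim25, Eif2ak2 and Zbp1, whose median Pearson r was 0.85, and the 3 of these 15 that missed were Dhx58 with Eif2ak2 (r = 0.68), Ifih1 (r = 0.62) and Trim25 (r = 0.62). The closest pair was Eif2ak2 with Zbp1 at r = 0.92 (Spearman rho = 0.93, permutation p = 0.00021, adjusted p = 0.00146). Ifih1 and Zbp1 had r = 0.92, Ifih1 and Rigi r = 0.91, and Eif2ak2 and Rigi r = 0.91. The 3 genes with an ISRE core in their promoter were all in this group, as was Trim25, whose promoter held no core in the 300 bases searched. Dhx58 and Zbp1 had no promoter entry to search, and a relation of the core to these correlations was not tested. After the group means were subtracted the median r of the 15 pairs was 0.87.

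The relations of Dhx58 rested on 2 libraries. Without circTau6 replicate 3 and control replicate 1, r fell to 0.36 for Dhx58 with Rigi, against 0.72 over all 10 libraries, and to 0.46 for Dhx58 with Zbp1, against 0.71 over all. For the other 10 correlated pairs, r was 0.71 to 0.96 without the 2 libraries farthest from the median of the alphabetically first gene. For Ifih1 with Rigi, Trim25 and Zbp1 these were control replicates 2 and 4. Control replicate 1 stayed in those pairs, so they are not like for like with the Dhx58 pairs. With Mavs, 0 of 7 pairs passed, at a median r of 0.34, and with Tlr3 0 of 7, at a median r of 0.53. Rigi with Tlr3 had r = 0.70 (adjusted permutation p = 0.0512), above the r of some Dhx58 pairs, and whether Dhx58 and Tlr3 differ in this was not tested. Mavs with Tlr3 was the only pair with a negative r, -0.20 (rho = -0.30, adjusted permutation p = 0.598). The pairs share libraries and depth, and control replicate 1 enters each of them. With log2(TPM + 0.1) in place of log2 CPM, 12 pairs passed as well.

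**Figure D4:**
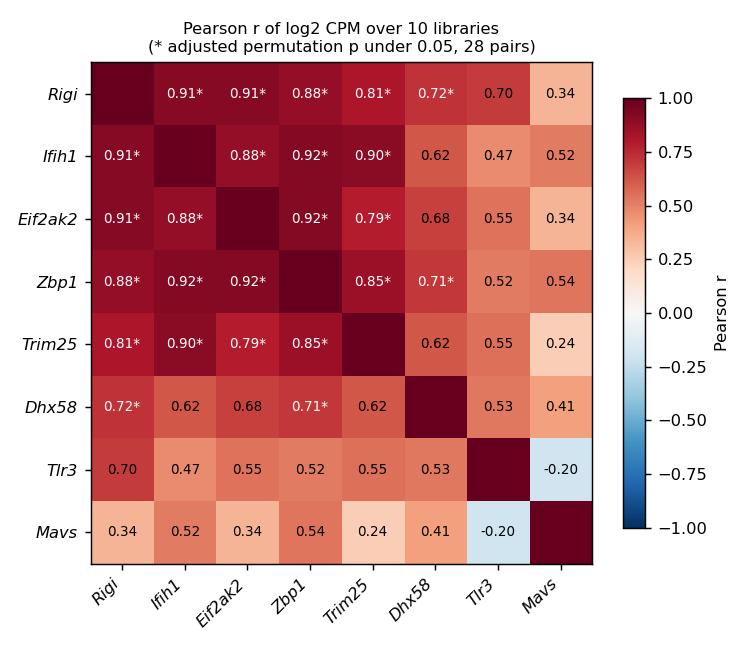
Pearson r of log2 CPM between the RNA sensors over 10 libraries, as a matrix with the value in each cell, on a colour scale of -1 to 1. The 6 genes other than Mavs and Tlr3 have r between 0.62 and 0.92 with each other, and the row of Mavs stays at or below 0.54.

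The genes that most resembled each sensor over the 10 libraries were sought among the 12864 genes whose log2 CPM averaged at least 1, as the 3 with the highest Pearson r, which gave 20 distinct genes in 24 places. For Rigi they were Zc3hav1, the zinc-finger antiviral protein that binds RNA (r = 0.94), the Fc receptor gene Fcgr1 (0.93) and Trim30a (0.92). For Ifih1 they were Fcgr1 (0.93), Sord (0.91) and the galectin gene Lgals9 (0.91), and for Zbp1 Rps27l (0.96), Lgals9 (0.94) and Sord (0.93). Eif2ak2 was closest to Ifi27, an interferon-induced gene (0.96), Lgals3bp (0.94) and Nek10 (0.91), and Trim25 to Naa40, Rtp4 and Lgals9, each at r = 0.93. Lgals9 was thus named for 3 sensors, with a mean level of 8.67 CPM in circTau6 and 7.29 CPM in control libraries.

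The remaining sensors had other neighbours. Mavs was closest to Ctsa, which encodes the lysosomal protease cathepsin A (r = 0.99), Txnip (0.97) and Cox8a, a subunit of respiratory complex IV (0.94). Ctsa averaged 88.3 CPM after circTau6 and 81.5 CPM in control, and its r with Mavs was 0.95 without the 2 libraries farthest from the median. Dhx58 was closest to Septin4 (0.97), Pdxdc1 (0.91) and Clpx (0.91), and for Pdxdc1 r was 0.14 without the 2 farthest libraries. Tlr3 was closest to Rasa4, the interferon-induced Ifit2 and Isy1, each at r = 0.90. These values describe likeness over 10 libraries that share depth and composition, and they carry no test.

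The genes that work with the sensors were counted in 9 lists. Counted once each, 103 genes of these lists were tested and 0 passed the adjusted threshold. At an unadjusted p under 0.05, 6 were higher (5.83%, beside 2.58% of all genes) and 3 lower (2.91%, beside 1.85%), and the median log2 fold change was 0.04. The lists were chosen with earlier results of these data known, so these counts are a description. For the 18 list genes named below by rule, edgeR's adjusted p was 0.771 for Unc93b1 and 0.981 for each of the others, and log2 fold changes are given with their SE.

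Around the RIG-I-like receptors and Mavs, no gene passed the adjusted threshold. Of 17 cofactors and regulators, 0 were higher and 2 lower at an unadjusted p under 0.05, with a median log2 fold change of -0.05. These were Mex3c, an RNA-binding ubiquitin ligase, at 42.9 ± 5.16 CPM in circTau6 and 49.2 ± 2.15 CPM in control libraries (log2 fold change -0.20 ± 0.07), and Ube2n, a ubiquitin-conjugating enzyme, at 192 ± 7.79 and 205 ± 4.86 CPM (log2 fold change -0.10 ± 0.04). Every circTau6 library lay below every control library for Ube2n and for Ppp1cc (edgeR, unadjusted p = 0.0881), beside 0.368% of all genes. Of 20 genes of the MAVS, TBK1 and IRF route, 2 were higher, Traf5 and the kinase Ripk1, and 1 lower, Traf3, with a median of 0.01. Traf5 averaged 1.58 ± 0.115 CPM after circTau6 and 0.961 ± 0.368 CPM in control (log2 fold change 0.72 ± 0.28), and Traf3, the adaptor below MAVS, 81.3 ± 3.41 and 87.8 ± 2.04 CPM (log2 fold change -0.11 ± 0.04). The kinase Tbk1 averaged 52.9 ± 2.61 CPM after circTau6 and 53.5 ± 3.12 CPM in control, and Irf3 11.1 ± 1.91 and 11.2 ± 1.69 CPM (both chosen after their values were seen).

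Around Tlr3, the median of 11 genes of the endosomal Toll-like receptor route was 0.18, with 1 higher and 0 lower. It was 0.09 without circTau6 replicate 3, 0.10 without control replicate 2, 0.11 without control replicate 3 and 0.29 without control replicate 5. That gene was Unc93b1, which carries the endosomal receptors to their compartment. It averaged 12.8 ± 0.794 CPM in circTau6 and 9.78 ± 0.978 CPM in control libraries, a log2 fold change of 0.38 ± 0.10 with each circTau6 library above each control library. Tlr7, a sensor of single-stranded RNA, averaged 6.11 ± 1.15 CPM after circTau6 and 5.06 ± 0.797 CPM in control (log2 fold change 0.27 ± 0.16). Of 9 microglia marker transcripts in the same libraries, 6 were higher after circTau6 at an unadjusted p under 0.05, beside 2.58% of all genes. At the adjusted threshold 0 of 9 passed. P2ry12, Gpr34 and Siglech, not among the 6, had log2 fold changes of -0.03, 0.01 and 0.11. Summed microglia marker levels were 372 to 402 CPM in circTau6 and 338 to 371 CPM in control libraries. The sensors correlated with the mean log2 CPM of microglia markers at r between 0.11 for Dhx58 and 0.57 for Tlr3 over 10 libraries, with 0 of 8 past an adjusted p of 0.05. In bulk tissue more cells of a type and more RNA per cell cannot be told apart.

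Around Eif2ak2, Zbp1 and the other RNA-binding factors, 2 genes had an unadjusted p under 0.05, Oas2 and Ripk1. The 2-5A route, in which oligoadenylate synthases switch on RNase L, had 5 tested genes and the highest median, 0.51, which ranged from 0.36 to 1.03 when single libraries were left out. Oas2 averaged 2.89 ± 1.26 CPM in circTau6 and 1.71 ± 0.821 CPM in control libraries (log2 fold change 0.76 ± 0.35), and Oasl2 16.2 ± 3.71 and 9.56 ± 5.87 CPM (log2 fold change 0.76 ± 0.36). Of 10 genes of the eIF2α kinase route, which PKR shares with other stress kinases, 9 had values below 0, none past an unadjusted p of 0.05, with a median of -0.06. Among them Dnajc3, an inhibitor of PKR, averaged 88.1 ± 7.88 CPM after circTau6 and 94.1 ± 10.1 CPM in control, and Eif2s1, which encodes eIF2α itself, 40.6 ± 2.54 and 42.5 ± 1.55 CPM. Of 8 partners of ZBP1 in cell death, 1 was higher, the kinase Ripk1 at 9.78 ± 1.16 CPM after circTau6 and 8.35 ± 0.494 CPM in control (log2 fold change 0.23 ± 0.10), and the inflammasome adaptor Pycard averaged 2.33 ± 0.616 and 2.77 ± 0.665 CPM (log2 fold change -0.25 ± 0.24). The kinase Ripk3 and the pore-forming Mlkl did not pass the filter, with 28 and 27 counts in all over the circTau6 libraries and 20 and 21 over the control libraries. Among 16 other RNA-binding innate factors 0 passed in either direction at an unadjusted p under 0.05, with a median of 0.11, and the 2 lowest p belonged to Samhd1, at 22.7 ± 0.478 CPM after circTau6 and 19.9 ± 2.84 CPM in control, and Isg20, at 0.772 ± 0.337 and 0.410 ± 0.269 CPM.

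The output side of the pathway, interferon and its signalling, also varied between libraries of a group, and the interferon genes themselves were near or below the floor. Ifnb1 and Ifna4 had 0 counts in 10 of 10 libraries, which allows up to 3 counts or 0.170 to 0.203 CPM in each, counting error only. Ifna2 had 0 counts in the circTau6 libraries and 3 counts in 1 control library. Of 10 tested genes for interferon receptors and their signalling, 1 was higher at an unadjusted p under 0.05 and the median was 0.16. Isg15, a ubiquitin-like protein induced by interferon, averaged 1.98 ± 0.480 CPM in circTau6 and 1.03 ± 0.502 CPM in control libraries (log2 fold change 0.95 ± 0.32), and Uba7, its activating enzyme, 4.30 ± 1.44 and 2.84 ± 1.47 CPM (log2 fold change 0.60 ± 0.30). In the DNA-sensing list, 1 of 9 genes was higher and the median was 0.08, with Ifi204 at 2.71 ± 0.914 CPM after circTau6 and 1.18 ± 0.907 CPM in control (log2 fold change 1.21 ± 0.41) and Sting1 at 3.51 ± 0.686 and 3.18 ± 0.486 CPM (log2 fold change 0.14 ± 0.19).

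Irf7, the interferon-induced transcription factor that amplifies interferon production, was looked at after the sensor values were seen. It had 10.5, 8.14, 8.55, 5.59 and 3.88 CPM in circTau6 replicates 1 to 5 and 13.3, 5.04, 2.81, 1.87 and 1.94 CPM in control replicates 1 to 5. Control replicate 1 was again the highest library and circTau6 replicate 5 the lowest of its group. Control replicate 1 was the highest library for Irf9 and Usp18 of the interferon list, and for 5 of 16 other RNA-binding factors, Ifit1, Ifit2, Ifit3, Ifit3b and Mov10. It was the highest for 1 of 17 cofactors of the RIG-I-like receptors, Zc3hav1, and for 2 of 20 genes of the Mavs route, Irf7 and Traf3.

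**Figure D5:**
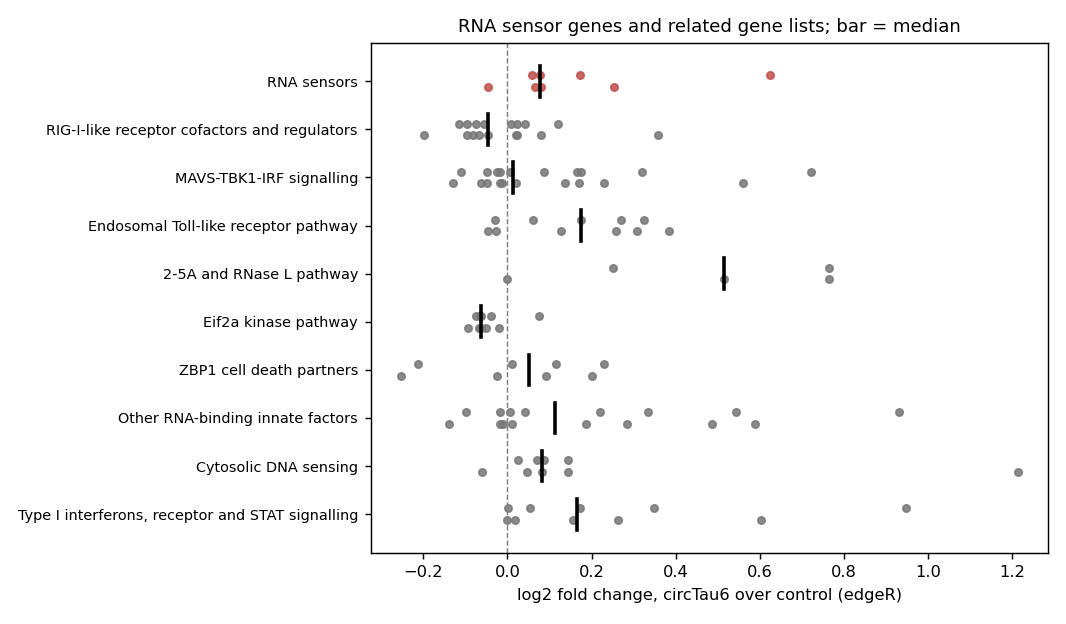
Log2 fold change of circTau6 over control for the tested genes of the 8 sensors and the 9 lists around them, one point per gene, with a bar at each list's median. The medians run from -0.06 for the eIF2α kinase route to 0.51 for the 2-5A route, and 0 genes of these lists passed an adjusted p of 0.05.

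The sensors were also set against the mean log2 CPM of the markers of 9 cell types over the 10 libraries. Of 72 such relations 0 passed an adjusted p of 0.05. The closest were those of Mavs with endothelial markers (r = 0.75, rho = 0.59, permutation p = 0.0194) and with meningeal fibroblast markers (r = 0.73, rho = 0.59, permutation p = 0.0122), each at an adjusted permutation p of 0.494. Without the 2 libraries farthest from the median, r was 0.33 with endothelial and 0.60 with meningeal markers. Summed meningeal markers ranged from 106 to 433 CPM in circTau6 and from 133 to 326 CPM in control libraries. T and NK cell markers were near the floor, at 1.36 to 3.40 CPM in circTau6 and 0.670 to 1.20 CPM in control libraries, with no member past the filter.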

How the data were processed

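Hippocampal RNA of 5 circTau6 and 5 control libraries was read as 150 bp pairs from rRNA-depleted, strand-specific libraries with RNA integrity numbers above 8.0, per the labels' protocols. StringTie 1.3.1 and RSEM are listed, without a role, per the submitters' processing notes, and no source used here names the aligner, build or annotation. The authors deposited 1 table with a count and a TPM per gene and library, per the file headers. In 108 entries a TPM above 0 stands beside a count of 0, and the deposited counts may therefore be estimates that were rounded. The log2 fold change, p-value and FDR of the authors' deposited table come from their own comparison, for which no source used here names a test.

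Groups were taken from the treatment label. edgeR 4.0.16 in R 4.3.3 was fitted to the counts of all genes (filterByExpr, TMM scaling, robust quasi-likelihood F test, Benjamini-Hochberg adjustment, threshold 0.05). CPM are counts scaled to the TMM-adjusted library total, and log2 CPM used a prior count of 2. Correlations were tested with 100000 random permutations (Python 3.11.15, numpy 2.4.6, scipy 1.17.1), and the exact permutation tests were run in R. Both were two-sided. DESeq2 1.42.0, limma 3.58.1 voom, other filters, scalings and thresholds, a replicate block and left-out libraries were alternatives. The edgeR and correlation steps were tested on simulated data. No 2 libraries were alike within sampling noise (smallest chi-square per degree of freedom 4.133).

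Coordinates were matched by gene ID to GENCODE M21 on GRCm38, with 21852 of 21956 IDs matched. The sensors and lists were chosen with earlier results of these data known. Named genes were the 8 sensors, the called genes of each list or otherwise the 2 with the lowest p, and the 3 nearest genes per sensor, excluding predicted gene names. GC content, the variation without control replicate 1 and genes said to be chosen after their values were seen are additions.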

Additional observations from a re-analysis of the deposited data

Results flagged for a closer look

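Among 34 groups of 5 values for the sensors and marker lists, Dixon's test at the 95% level marks a library whose gap to its nearest neighbour exceeds 0.71 of the group's range, which chance gives in about 1 of 20 groups. It marked 7 values, in 4 libraries. Eif2ak2 in circTau6 replicate 5, at 8.366 CPM, was below the other circTau6 libraries at 16.04 to 16.61 CPM. Eif2ak2 in control replicate 1, at 22.71 CPM, was above the other controls at 10.91 to 13.55 CPM. Dhx58 in circTau6 replicate 3, at 2.87 CPM, was above the other circTau6 libraries at 1.156 to 1.53 CPM, and in control replicate 1, at 3.17 CPM, above the other controls at 1.138 to 1.602 CPM. Mavs in circTau6 replicate 3, at 14.35 CPM, was above the other circTau6 libraries at 9.309 to 10.66 CPM. The mean log2 CPM of choroid plexus markers was 1.633 in circTau6 replicate 5, against 5.342 to 6.75 in the others of its group, and 1.418 in control replicate 2, against 6.016 to 6.685 in the others of its group.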

How the results depend on the processing

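With 0 sensors called, no alternative called one: 0 of 8 passed under all 21 settings. Genes called among all tested numbered 14 with DESeq2, 2 each with limma voom, with library totals only, without the count filter and at a threshold of 0.1, 3 without both choroid-poor libraries and 0 to 4 when single libraries were left out. The fold change of Dhx58 ranged from -0.3553 to 0.3035, that of Rigi from -0.02117 to 0.3427 and that of Trim25 from -0.07107 to 0.2593 with single libraries left out. Dhx58 was at 0.02805 without both choroid-poor libraries. Those of Zbp1, Mavs, Ifih1, Eif2ak2 and Tlr3 stayed above 0 in the 21 settings, with lowest values of 0.002 for Eif2ak2 and 0.003 for Tlr3. Same-numbered libraries were not treated as paired, since the correlation of their deviations was over 0.1 in only 3 of 5 pairs (-0.076 to 0.136) and not in every pair. With the replicate block 4 genes and 0 sensors were called, and Mavs, at 0.24, had an unadjusted p under 0.05 (adjusted p = 0.969). The SE of each sensor was smaller with the block. It was 0.13 against 0.24 for Rigi, 0.16 against 0.25 for Eif2ak2 and 0.15 against 0.19 for Ifih1. Whether same-numbered libraries share a source was not tested. Among the lists, the 2-5A median ranged from 0.36 to 1.03 and the interferon median reached 0.31, both highest without control replicate 1, and the endosomal Toll-like receptor median ranged from 0.09 to 0.29, and the cause was not tested. Depth limits Zbp1 and Dhx58.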
